A study of Mus musculus with 2 samples.

Results

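The AP-1 transcription factors were followed in RNA from cultured mouse hippocampal neurons with and without blocked firing. The members were the 9 genes Fos, Fosb, Fosl1, Fosl2, Jun, Junb, Jund, Atf3 and Jdp2, chosen by gene name among the probes that are not controls, out of 34797 gene names on the array. They were read by 10 probes on 19 spots of each array. All groups shared dissociated ICR hippocampus of embryonic day 16.5, plating in medium with 5.5% serum, 5 µM Ara-C against dividing glia, and RNA extraction at 12 days in vitro. The control group was titled as control, and no vehicle was stated. The TTX group had 2 days of tetrodotoxin, which blocks the sodium channels behind action potentials. The treatment note is the same for both samples, so the groups rest on the titles. The TTX dose is 2 µM by the design description but 2 mM by the sample's source name. How many embryos or dishes were pooled is not given. Each group had 1 single-colour Agilent array. No difference had a replicate check, no p-value could be given, and a difference was called by size, at 2-fold. A mixed culture was measured as a whole, so fewer cells of a type and less RNA per cell cannot be told apart.

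AP-1 is a dimer of basic leucine zipper proteins. FOS proteins cannot pair with themselves and bind DNA with a JUN partner, whereas JUN proteins can also pair with each other. ATF3 and JDP2 share this dimer network and often act as repressors. In neurons, Fos, Fosb and Junb are classic immediate early genes, transcribed within minutes of calcium entry and cleared quickly, while Jund is present at rest. The comparison of the TTX and control cultures describes which of these messages differed after 2 days of TTX, with 1 array a group.

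In the TTX culture the signals of Fos and Fosb were lowest relative to control, at log2 differences of -2.61 and -2.08. Fosl2, Junb and Jund were lower by smaller amounts, Jdp2 was close to level, and Jun and Atf3 were higher. Of the 8 members measured on both arrays, 2 were at least 2-fold lower and 0 at least 2-fold higher, against 3.38% and 2.07% of all 14114 measured genes. At 1.5-fold, 5 members were lower and 1 higher, against 8.65% and 7.64% of all genes. Junb, Jund and Atf3 were inside 1.5-fold with normexp background correction. The median member was at -0.68, and the median of all measured genes was 0.01.

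Short matches to elements that the literature ties to activity-driven transcription were searched for just upstream of the annotated starts. The sequences there are given for the members called lower and for 4 others. Each is the 130 bases before the start, 5′ to 3′ on the gene's strand, from RefSeq on build GRCm38.p6. Capitals mark matches on either strand to TGACG, the core of the cAMP response element (CRE) bound by CREB, to TGACNTCA, a CRE-like element that JUN and ATF2 bind, or to GCGGGGGCG, a G-rich EGR element.
Fos, chr12:85473760-85473889, plus strand: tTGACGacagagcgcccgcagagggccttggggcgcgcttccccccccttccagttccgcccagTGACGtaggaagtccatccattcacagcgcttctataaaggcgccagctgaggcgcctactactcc
Fosb, chr7:19310046-19310175, minus strand: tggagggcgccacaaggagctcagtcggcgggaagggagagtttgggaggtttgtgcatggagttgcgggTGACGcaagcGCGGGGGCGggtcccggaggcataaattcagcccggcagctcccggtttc
Fosl2, chr5:32136342-32136471, plus strand: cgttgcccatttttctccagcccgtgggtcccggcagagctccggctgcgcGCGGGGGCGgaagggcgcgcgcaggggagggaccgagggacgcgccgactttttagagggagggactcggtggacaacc
Junb, chr8:84978749-84978878, minus strand: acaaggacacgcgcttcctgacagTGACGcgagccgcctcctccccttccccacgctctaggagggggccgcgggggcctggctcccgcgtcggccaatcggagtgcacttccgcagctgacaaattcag
Jun, chr4:95052223-95052352, minus strand: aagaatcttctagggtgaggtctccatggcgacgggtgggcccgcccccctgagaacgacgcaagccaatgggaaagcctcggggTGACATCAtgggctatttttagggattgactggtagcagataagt
Atf3, chr1:191183334-191183463, minus strand: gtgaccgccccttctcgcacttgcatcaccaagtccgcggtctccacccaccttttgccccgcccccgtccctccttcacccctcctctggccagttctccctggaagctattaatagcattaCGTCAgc

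Promoter windows were found for 8 of the members, all but Fosl1, with 3 starts for Jdp2 and 10 windows in all. Over the 250 bases upstream, TGACG was present in 5 of the 10 windows: those of Fos, Fosb, Junb, Atf3 and 1 start of Jdp2. It was present in 17.8% of the 32851 promoter windows of the same length in the table, which were not matched for GC content. In Fos the first base of TGACG lay at -129 and at -66 from the start, and in Fosb at -60. In Junb it lay at -106. In Atf3, the member with the largest difference upward, it lay at -7. TGACNTCA matched in Jun alone, as TGACATCA at -45, against 7.49% of all windows. GCGGGGGCG matched in Fosb and Fosl2, against 2.57%. The full CRE palindrome (the form of TGACNTCA with G in the middle) and the AP-1 element TGACTCA matched in 0 of the 10 windows, against 1.55% and 4.46% of all. The canonical EGR element and the CArG box, the site of serum response factor, also matched in 0 of these windows, against 0.536% and 1.47%. Sequence further upstream than 250 bases was not searched, so a count of 0 does not speak to sites there. TATAAA was found in Fos alone (12.4% of all windows) and CCAAT in Jun and Junb (33.8%). A match is a description of the letters, and TGACG was held both by members with lower signals and by Atf3, whose signal was higher.

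Fos, the prototype of its family, was printed on 10 spots and had the smallest scanner error of the group. On the control array its spots had normalized signals from 302 to 387 with a median of 328, and on the TTX array from 47.5 to 67.2 with a median of 53.9. The ranges did not overlap, and the highest TTX spot stood far under the lowest control spot. The mean signals were 330.2 and 54.1, which is 6.10-fold lower in TTX, with a spot-level SD of 0.18 around the log2 difference of -2.61. Single spots gave differences from -2.91 to -2.28. These spots share 1 RNA sample per condition, so their spread is that of printing and hybridization, not of cultures. Fos ranked 35 from the lowest of the 14114 genes. With normexp background correction and an offset of 50, the difference was 3.27-fold.

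**Figure D1:**
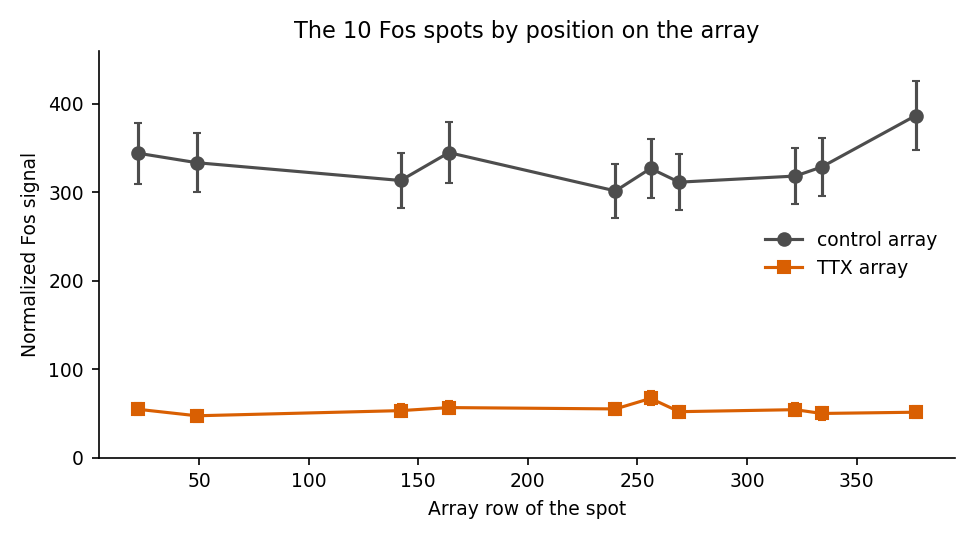
Normalized signal of the 10 Fos spots (vertical axis, linear, from 0) against the row of the array on which each was printed (rows 22 to 377), with bars of 1 scanner error (mostly hidden by the TTX symbols) and lines joining the spots of an array. Control spots (circles) lie between 302 and 387 and TTX spots (squares) between 47.5 and 67.2 over the whole length of the array.

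Fosb encodes FosB and, by splicing, the truncated and long-lived ΔFosB, and its probe signal was not divided between the forms here. It was read by 1 spot, with signals of 191 in control and 45.3 in TTX, 4.23-fold lower. The scanner's own error of this log2 difference was 0.25, and the value ranked 79 from the lowest. Fosb was a dim gene, among the 2823 measured genes with the lowest signals, of which 4.61% were at least 2-fold lower. Fos lay among the next 2823, of which 4.92% were. With normexp the difference of Fosb was 2.23-fold.

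Fosl2 encodes FRA2, a FOS family protein that lacks the strong activation domain of c-FOS and is usually made later and kept longer. Its brighter probe gave 4278 in control and 2185 in TTX, a log2 difference of -0.97 with a scanner error of 0.20. That is just inside the 2-fold rule, so Fosl2 was not called. Its call depends on the scaling: it was 2.20-fold lower when the arrays were scaled on the spike-in controls. The second probe of Fosl2 starts 4988 bases upstream of the first and was dim, with signals of 21.8 and 8.40. It was not well above background on the TTX array, so it gives a bound only, 1.11-fold lower in TTX. The scanner error of its log2 difference was 0.93, so no direction is read from this probe.

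Fosl1, which encodes FRA1, a FOS protein best known from proliferating and wounded tissue, was close to the detection limit. Its signals were 27.9 in control and 22.0 in TTX, where it was not well above background. That TTX signal stood above the lowest signal well above background there, so the bound was the plain ratio, 1.26-fold lower in TTX. The log2 difference of -0.34 was smaller than its scanner error of 0.42, so no direction is read from it. Fosl1 is the member that did not pass the filter on low values.

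The probes of the FOS family are shown because the size of a difference belongs to the stretch of message each one reads. The lines give the first 30 of the 60 bases of each probe as deposited.
Fos, A_52_P262219: ggactttattttccagtagatagaaatcaa
Fosb, A_55_P2113051: actgccgaccacaattcattgactccatag
Fosl2, brighter probe A_55_P1995195: gctatggaggaaagaacatattaaaaactt
Fosl2, dim probe A_51_P507242: gattgctgagctgcagaaggagaaggagaa
In the mm9 coordinates of the design, the Fos probe covers chr12:86817900-86817959 on the plus strand, and all 3 of its forward reading frames hold a stop codon, so it does not lie wholly in coding sequence. The Fosb probe covers chr7:19888168-19888227 on the minus strand. The Fosl2 probes cover chr5:32460076-32460135 and chr5:32455088-32455147 on the plus strand. Exon and UTR annotation of mm9 was not used here.

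Of the JUN partners, Junb and Jund had lower signals in TTX, and Jun had a higher one that its scanner error does not separate from level. Junb, itself an immediate early gene and a weaker activator than c-JUN on many sites, had signals of 151 and 88.8 on the control and TTX arrays. Its log2 difference was -0.76 with a scanner error of 0.22, or 1.70-fold lower (1.42-fold with normexp). Jund, the constitutive JUN protein, was bright on both arrays, at 12553 and 8327, a log2 difference of -0.59 and a scanner error of 0.20. Jun, the main target of the JNK kinases and a marker of stressed or injured neurons, had signals of 7587 and 9715. It was higher in TTX by 0.36, with a scanner error of 0.20. The 95% range from the scanner error around the Jun value, -0.04 to 0.76, includes 0, and scaling on the spike-ins lowered it to 0.15. Those around Junb (-1.19 to -0.34) and Jund (-0.99 to -0.19) lie below 0. The Jun, Junb and Jund probes cover chr4:94716928-94716987, chr8:87501881-87501940 and chr8:73224436-73224495 of mm9.

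**Figure D2:**
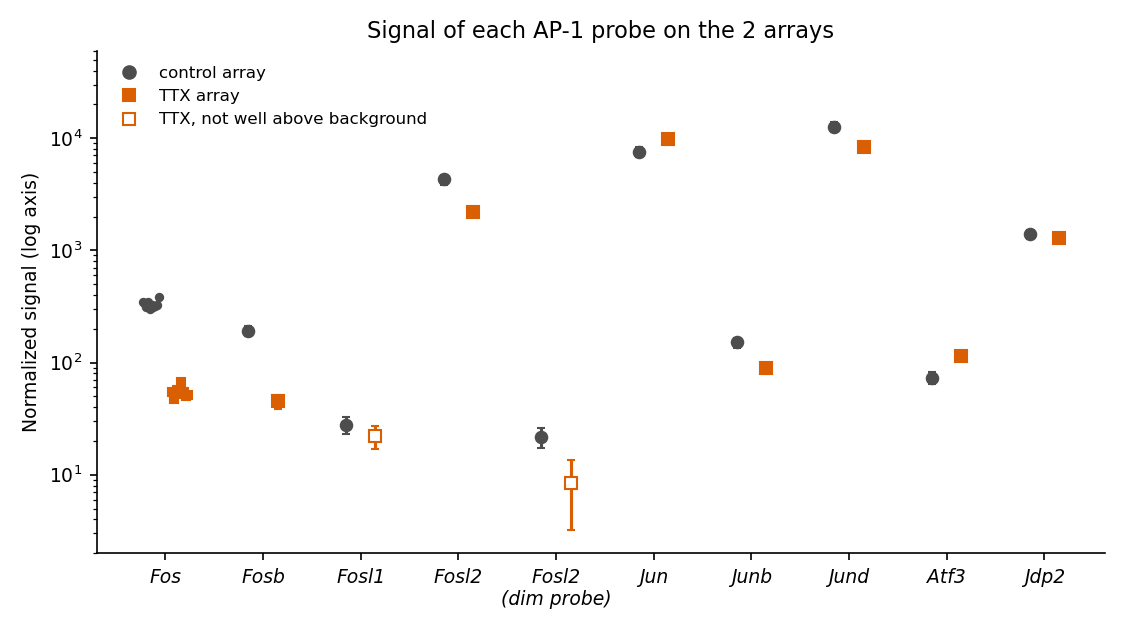
Normalized signal (log axis) of each AP-1 probe on the control array (circles) and the TTX array (squares), with bars of 1 scanner error, and single spots for Fos. Open squares mark signals not well above background. The gap is widest for Fos and Fosb, while Jun and Atf3 have the TTX signal above the control signal.

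Atf3, a stress- and injury-induced factor that represses many of its targets, went the other way from Fos and Fosb. Its signals were 73.4 in control and 115 in TTX, 1.56-fold higher. The log2 difference was 0.64 with a scanner error of 0.23, and its 95% range was 0.20 to 1.09. With normexp it was 1.31-fold higher. Atf3 was dim as well. Among the 2823 dimmest genes 12.8% were at least 1.5-fold higher, and 9.79% of those whose spots lay in array rows 193 to 384, where Atf3 was printed (row 216). In rows 1 to 192 the share was 15.7%. The part that dimness and position have in the Atf3 value was not tested. Jdp2, a repressor that pairs with JUN proteins, had signals of 1388 and 1288, a log2 difference of -0.11 that is smaller than its scanner error of 0.20. The Atf3 probe covers chr1:192994547-192994606 and the Jdp2 probe chr12:86980657-86980716 of mm9.

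The arrays had 54.2% (control) and 52.2% (TTX) of spots well above background and 0 saturated, and having 1 array a group is what limits precision. All 15 neuron markers were measured, with a median of -0.22 (-0.41 with spike-in scaling) and summed signals of 260901 and 239430 in control and TTX. The neurofilament gene Nefm was at -1.20. Of 12 astrocyte markers 10 were measured, Gja1 and Gjb6 being the exceptions, with a median of 0.32 and sums of 52879 and 63450. Aldoc supplied most of these sums, with 38706 and 44061, and the glutamate transporter Slc1a2 was lower at -1.05. Of 12 microglia markers 9 were measured, with a median of 0.36 that was 0.19 with normexp and 0.08 with the stricter filter. Their sums were 19898 and 22070, mostly Itgam with 18172 and 20323, while Cx3cr1 and P2ry12 were at background on both arrays and Tmem119 on TTX. For oligodendrocytes 6 of 10, for fibroblasts 6 of 8 and for endothelium 3 of 8 markers were measured, with medians of 0.20, 0.22 and -0.21. The oligodendrocyte median was 0.01 with no filter and 0.02 with the stricter filter, and the endothelial one was -0.05 with 75th percentile scaling and 0.00 with no filter. In the fibroblast list Fbln1, an extracellular matrix protein, was higher by 2.38. The endothelial Cdh5, Cldn5, Tek, Tie1 and Vwf were at background on both arrays. Atf3 and Jun are expressed by glia too, and the part of a different share of cells in their values was not tested.

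In order of difference the measured members ran Fos, Fosb, Fosl2, Junb, Jund, Jdp2, Jun and Atf3. The 95% ranges of Fos (-2.76 to -2.46) and Fosb (-2.57 to -1.59) overlap, so do those of Fosl2, Junb and Jund, those of Jund, Jdp2 and Jun overlap at each step, and those of Jun and Atf3 overlap too. The Fos range is narrower because its error was averaged over 10 spots of the same RNA, against 1 spot for each other member. The scanner error is mostly a fixed share of the signal set by the software. Where 251 measured probes had 8 to 10 usable spots, the pooled spot SD of a difference was 0.15, and it was 0.27 for the dimmest 51 of them and 0.06 for the brightest 50. With quantile normalization the differences of the bright members Jun, Jund and Fosl2 exceed that spread, which does not measure the spread between cultures. Under spike-in scaling the Jun difference was 0.145, below the pooled spot SD of 0.148. Each member kept its sign under every alternative that measured it, 8 or 9 settings per gene. As each member had 1 measured probe, the filters and the mean over probes returned the same value and could not change a sign. The value table is itself quantile normalized.

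**Figure D3:**
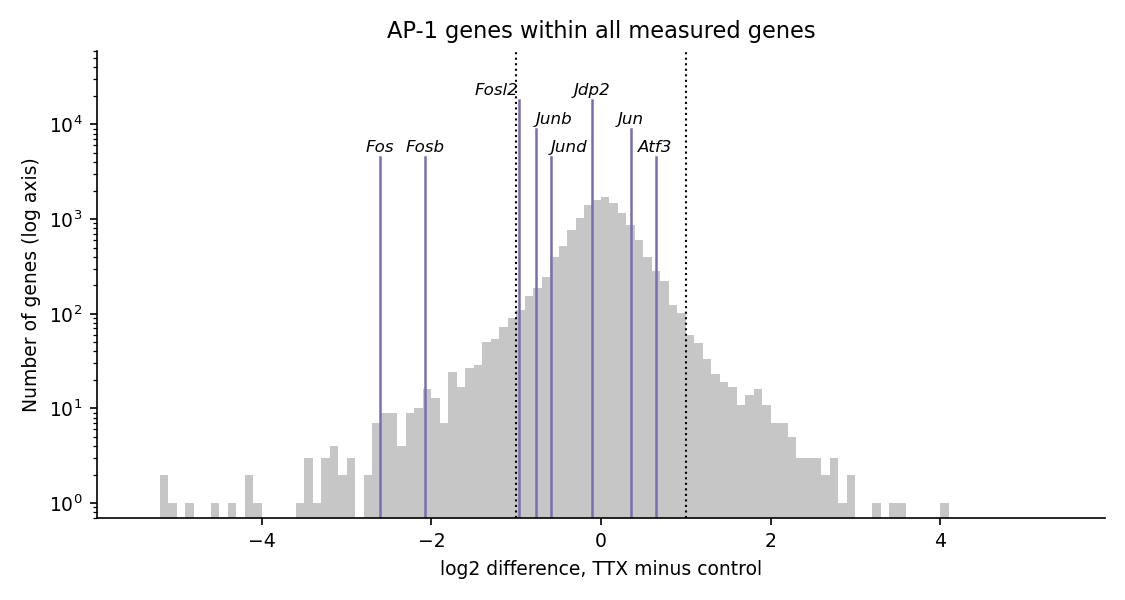
Number of measured genes (log axis) by log2 difference, TTX minus control, in grey, with the 8 measured AP-1 genes as vertical lines and the 2-fold rule dotted. Fos and Fosb stand in the lower tail, Fosl2 at the dotted line, and the other 5 within it.

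**Figure D4:**
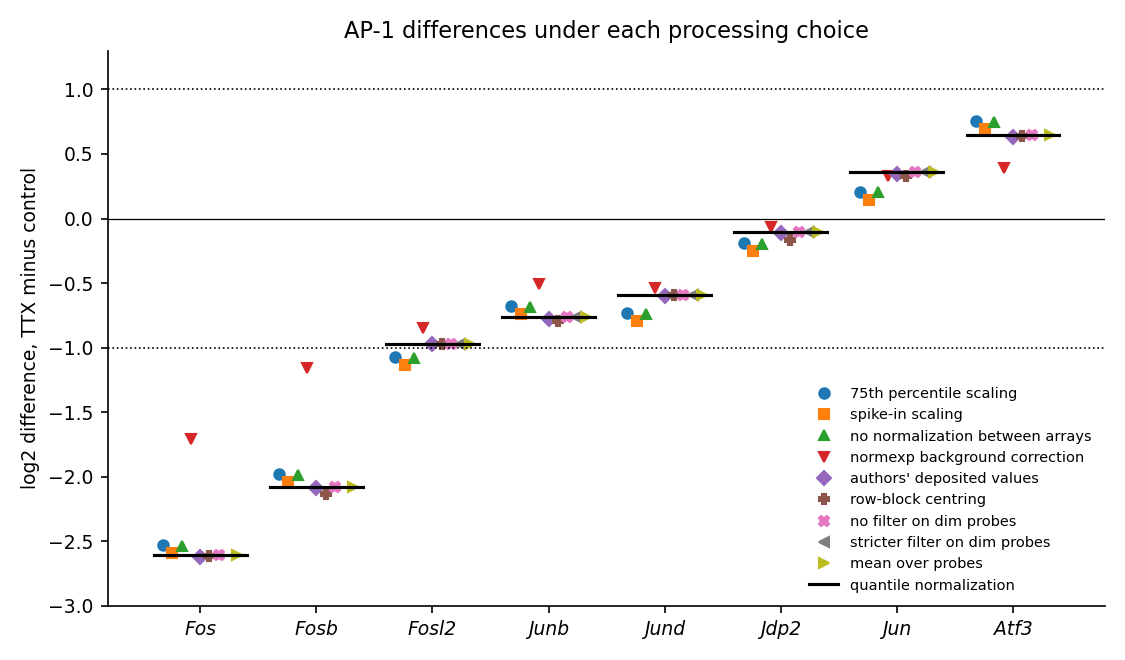
Log2 difference of each measured AP-1 gene with quantile normalization (bars) and under 9 alternatives (symbols), with the 2-fold rule dotted. Normexp brings Fos and Fosb nearer to 0, at -1.71 and -1.16, and Fosl2 crosses the rule under 3 scalings. The stricter filter leaves out Fos, Fosb and Atf3.

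The genes whose difference was nearest to that of Fos, over this single pair of arrays, were Pappa2 (-2.62), a protease of IGF-binding proteins, Shc3 (-2.60), a neuronal signalling adaptor, and Wif1 (-2.62), a secreted WNT inhibitor. Nearest to Fosb were Cort (-2.08), the neuropeptide cortistatin, Mlip (-2.07) and Nfkbie (-2.07), an inhibitor of NF-κB. Likeness here is the gap between log2 differences, at most 0.013 for these 6 genes.

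Around the members, 136 genes of 6 lists described the pathway, and 115 were measured. Of these, 16 were at least 2-fold lower and 3 higher, beside the 3.38% and 2.07% of all measured genes given above. Other primary response genes, which calcium and ERK signalling induce alongside Fos, held most of them: 12 of 30 measured were at least 2-fold lower, 0 higher, and the median was -0.52. Arc, a dendritic cytoskeletal protein, was at -5.19 and the nuclear receptor Nr4a1 at -5.09. Npas4 (-3.53) and Egr4 (-3.05), both activity-induced transcription factors, came next, so each of these 4 was further from control than Fos. The prostaglandin synthase Ptgs2 was above background on the control array alone, with signals of 283 and 6.60, at least 14.4-fold lower in TTX. Nr4a3 was at least 6.76-fold lower, with signals of 133 and 17.2.

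The messages of kinases and factors that act on Fos and Jun lay mostly within 2-fold. Of 26 measured genes of the ERK, JNK and p38 modules, 0 were 2-fold lower and 2 were higher, with a median of -0.12. The higher ones were Rps6ka5 (1.24; signals of 131 and 309), which encodes MSK1, a kinase of CREB and histone H3, and the p38 activator Map2k6 (1.06). These calls depend on the processing: 1 kinase was higher with 75th percentile, spike-in or no scaling and 0 with normexp. Spike-in scaling also gave 2 kinases at least 2-fold lower and a list median of -0.30. Of 15 factors that bind the Fos and Jun promoters or are recruited there, such as SRF, the ELK proteins and CREB, 0 passed 2-fold in either direction, and the median was 0.14. With the mean over a gene's probes, 1 of them was at least 2-fold higher. Of the 10 measured genes of AP-1 protein and message turnover 0 passed in either direction, with a median of 0.02 that was -0.14 with spike-in scaling. Phosphorylation, by which these proteins are switched, was not measured.

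Among the other basic leucine zipper factors 1 of 17 measured was at least 2-fold lower and 0 higher, with a median of 0.10. The lower one was Cebpb (-1.11; signals of 1053 and 488), a factor of inflammation and metabolism. With normexp 0 of this list were lower, and 2 were with 75th percentile, spike-in or no scaling and with row-block centring, while the median was -0.10 with no filter. Batf3, a partner of JUN proteins in immune cells, was above background on the control array alone (signals of 50.1 and 6.26), at least 2.55-fold lower in TTX. Its spot lay in row 213 and that of Ptgs2 in row 220. Genes above background in control alone with a bound of at least 2-fold numbered 46 in rows 1 to 192 and 80 in rows 193 to 384, and the part of position in these values was not tested.

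Reported AP-1 target genes were divided. Of 17 measured, 3 were at least 2-fold lower and 1 higher, and the median was 0.07. The lower ones were peptide precursors: Vgf (-4.36; signals of 37981 and 1855), Npy (-1.60) and Penk (-1.52), which encodes the enkephalins. Other peptide precursors of the list did not pass: Gal was at 0.17 and the dim Pdyn at -0.18. Nts was above background on the control array alone, with signals of 23.3 and 20.6. Hrk, a BH3-only cell death gene that JUN can induce, was higher by 1.45, with signals of 5799 and 15875. Sprr1a, a gene of injured neurons, was above background on the TTX array alone, with signals of 4.47 and 69.6, at least 4.36-fold higher. Its spot lay in row 47. Of genes above background on TTX alone with a bound of at least 2-fold, 182 lay in rows 1 to 192 and 17 in rows 193 to 384, and the part of position in the Sprr1a value was not tested. The matrix proteases Mmp3, Mmp9, Mmp10 and Mmp13 were not well above background on either array.

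**Figure D5:**
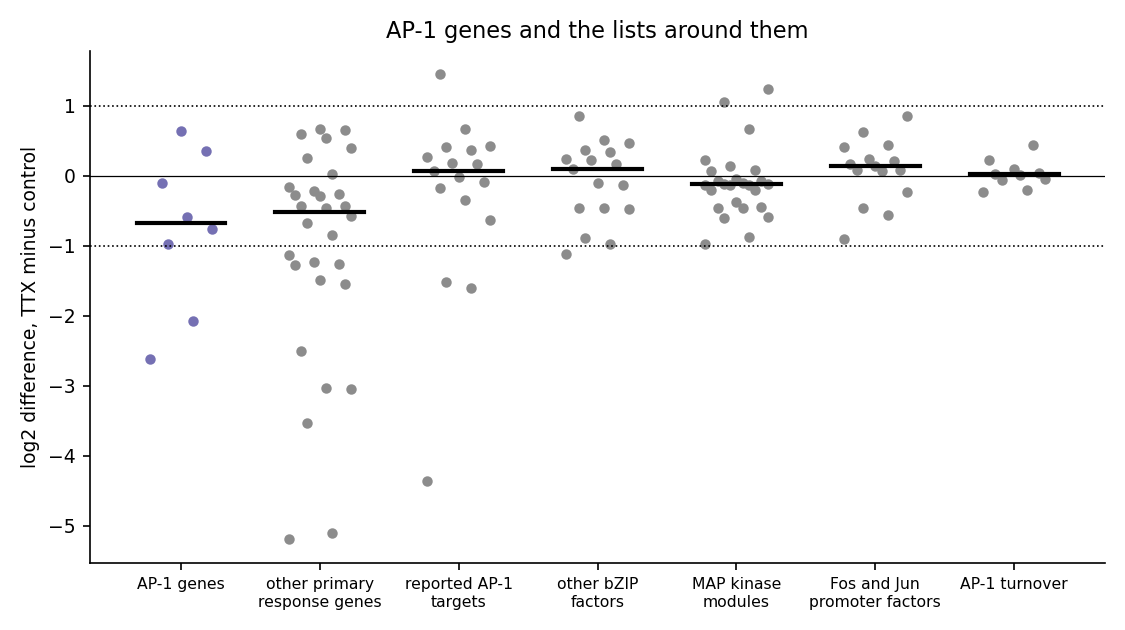
Log2 difference, TTX minus control, of each measured gene (points) in the AP-1 group and in the 6 lists around it, with list medians as bars and the 2-fold rule dotted. The medians of AP-1 genes and other primary response genes are -0.68 and -0.52, and those of the other lists lie between -0.12 and 0.14. Some genes of these 2 groups lie below the rule, and so do some reported AP-1 targets (lowest -4.36) and other basic leucine zipper factors (lowest -1.11).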

How the data were processed

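Each sample was 1 Cy3-labelled Agilent 8x60K mouse array on the same slide. The authors' scanner files hold processed spot intensity, background-subtracted on a linear scale, from Feature Extraction 10.7.1.1 per the file headers (9.5.1.1 per the submitters' processing notes). The deposited value table holds linear intensity with identical quartiles on both arrays, which fits the quantile normalization that the labels' design description states. Spot flags (well above background, outlier, saturated) are 0 or 1 per the file headers.

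Outlier spots (131 on control, 170 on TTX) were left out. Signals were quantile normalized and taken as log2, with the mean over a probe's spots. Measured probes had a share of 0.5 or more of spots well above background in control and in TTX alike; the brightest such probe stood for its gene. Of 55681 probes, 31399 were named through RefSeq symbols of GRCm38.p6 by accession or symbol, giving 14114 measured genes. Where 1 array alone was above background, the bound used the higher of the dim signal and the lowest signal well above background there (log2 4.00 on control, 4.30 on TTX). The error of a difference combined both scanner errors, and the spots of a probe were treated as independent. Motifs were searched on both strands of the 250 bases before RefSeq starts. Python 3.11.15, pandas 2.3.3 and limma 3.58.1 (normexp) were used, and the steps were tested on simulated data.

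Named genes were all 9 members, up to 4 genes past 2-fold per list and direction, up to 2 bounds of at least 2-fold per list, and the 3 genes nearest to each member past 2-fold. The members and lists were chosen with earlier results of these data known. Genes named outside that rule (the matrix proteases, Gal, Pdyn, Nts and single cell type markers) were chosen after their values were seen. With 1 array a group no test was run. Alternatives were 75th percentile, spike-in (7 probes) and no scaling, normexp with an offset of 50, the value table, filters (no filter, or above percentile 25 on both arrays), the mean over probes, centring in blocks of 48 rows, and 1.5-fold, 3-fold and 95% error-range rules.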

Additional observations from a re-analysis of the deposited data

How the results depend on the processing

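No paired analysis was possible because each group had 1 array. Of the 9 members, Fos and Fosb were at least 2-fold lower under all 8 alternatives that measured them, with log2 differences from -2.62 to -1.71 and from -2.14 to -1.16. Of these 8, no filter and the mean over probes could not move the value, as each of the 2 genes has 1 probe. The stricter filter left out Fos and Fosb for their dim TTX signal, so its count of members at least 2-fold lower was 0. With 75th percentile scaling (-1.07), spike-in scaling (-1.14) and no scaling (-1.08), Fosl2 also passed and the count was 3. A 1.5-fold rule gave 5 lower and 1 higher. Jund passed it narrowly, at 1.51-fold lower. With normexp, Junb (1.42-fold lower), Jund (1.45-fold lower) and Atf3 (1.31-fold higher) were inside it. The members' median was -0.52 with normexp, which adds an offset to every signal and so compresses dim differences. Counts of pathway genes lower (16) became 26 at 1.5-fold and 8 at 3-fold. Counts higher (3) became 11 and 0 at those sizes, 1 with normexp and 5 with no filter. All measured genes at least 2-fold lower and higher numbered 477 and 292. They were 301 and 146 with normexp, 1378 and 1074 with no filter, and 312 and 159 with the stricter filter. The all-gene median, 0.01, became -0.09 with spike-in scaling. Signal over background limits the dim members Fosl1, Fosb and Atf3. It also limits Fos on the TTX array, where the signal was 54.1 beside a local background of 59.5.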
